A study of Mus musculus with 4 samples.

Results

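The response of wild-type macrophages to bacterial lipopolysaccharide (LPS) was described from single-cell RNA sequencing of macrophages grown from mouse bone marrow. Cells were chosen by their library in the deposited cell annotation: 8288 cells of the LPS-treated wild-type library and 7028 of the untreated one, 15316 of the 27366 cells of the series. Per the labels, the marrow came from C57BL/6J mice aged 8 to 12 weeks and was differentiated in M-CSF (macrophage colony-stimulating factor) at 50 ng/mL, which both libraries shared, and the treated cells had received 100 ng/mL of LPS for 24 h. The series also holds LPS-treated and untreated libraries labelled Trpv4-null. The design text mentions 12 samples from 3 mice per genotype, whereas the annotation ties a cell to its library but not to a mouse. The comparison therefore has 1 library a side, and no test was possible. Every interval below is a 95% interval for counting error alone, silent on how mice or cultures vary. Intervals of ratios also take each UMI as independent, and so are too narrow where the UMIs lie in few cells.

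Macrophages sense LPS, a component of the wall of Gram-negative bacteria, through the receptor TLR4 with its partners MD-2 and CD14. One branch of the signal, through the adaptor MyD88, leads to NF-kB and the transcription of cytokines and chemokines. Another, through TRIF, leads to interferon beta, which acts back on the cells through its receptor to switch on interferon-stimulated genes (ISGs). The first genes of the response are known to pass their peak within hours, while interferon-driven and metabolic programmes act later.

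The 15 macrophage markers (Lyz2, Csf1r, Adgre1, Cd68, C1qa and others) all reached 20 CPM in both libraries, where CPM is a gene's count per 1000000 counts of its library and a count is a unique molecular identifier (UMI), the tag of a captured mRNA molecule. Markers of T or NK cells, mast cells and red cells summed to under 1 CPM in both, although only 1 of 7, 2 of 6 and 1 of 5 of them were in the table. Those of neutrophils summed to 209 CPM untreated and 118 after LPS, and those of B cells to 141 and 3.94 CPM. Ighm made up 134 CPM of the B cell sum untreated but only 0.104 CPM after LPS. The libraries held 43731003 and 144090985 UMIs, and the median cell 5660.5 and 16673.5 UMIs, so that LPS cells were 2.79 times as deep in the mean. Whether this depth comes from more RNA per cell or from sequencing cannot be told apart, and CPM takes it out. The median share of mitochondrial UMIs per cell was 6.06% untreated and 3.05% after LPS. Both libraries contained 16 of the same cell barcodes, 0.228% of the smaller library. Cells with these barcodes made up 9 of the 78 untreated cells with a Saa3 UMI. Leaving them out moved the log2 ratio of Saa3 most among the 657 genes named or listed, and next that of Ccl12, from 7.63 to 7.72.

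Of 14432 genes in the table, 6332 were compared, those with at least 20 CPM and 30 UMIs in the higher library. Ratios are log2 of LPS CPM plus 1 over untreated CPM plus 1, and at least 2-fold is a size, not a test. In all, 437 genes (6.90%) stood at least 2-fold higher after LPS and 1121 (17.7%) at least 2-fold lower, and the median log2 ratio over all compared genes was -0.39. These shares and this median are the background against which each gene list below is to be read. The genes at least 2-fold higher supplied 7.70% of the untreated UMIs and 30.9% of the LPS UMIs, and the genes at least 2-fold lower 18.6% and 6.68%. CPM divides by the library total, and the split depends on that scaling. With median-of-ratios size factors, which add up to 0.54 to a log2 ratio, 843 genes were higher and 420 lower. With TMM factors, which add up to 0.52, these were 814 and 427. Both add less where a gene is low in either library, because 1 CPM is added after the scaling. Of 368 named or listed genes at 2-fold or more, 315 were still so under either scaling. Shifts of this size cannot turn the sign of a 2-fold ratio. The extremes were uneven: 113 genes stood at least 8-fold higher and 64 at least 16-fold, against 82 and 28 lower.

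**Figure D1:**
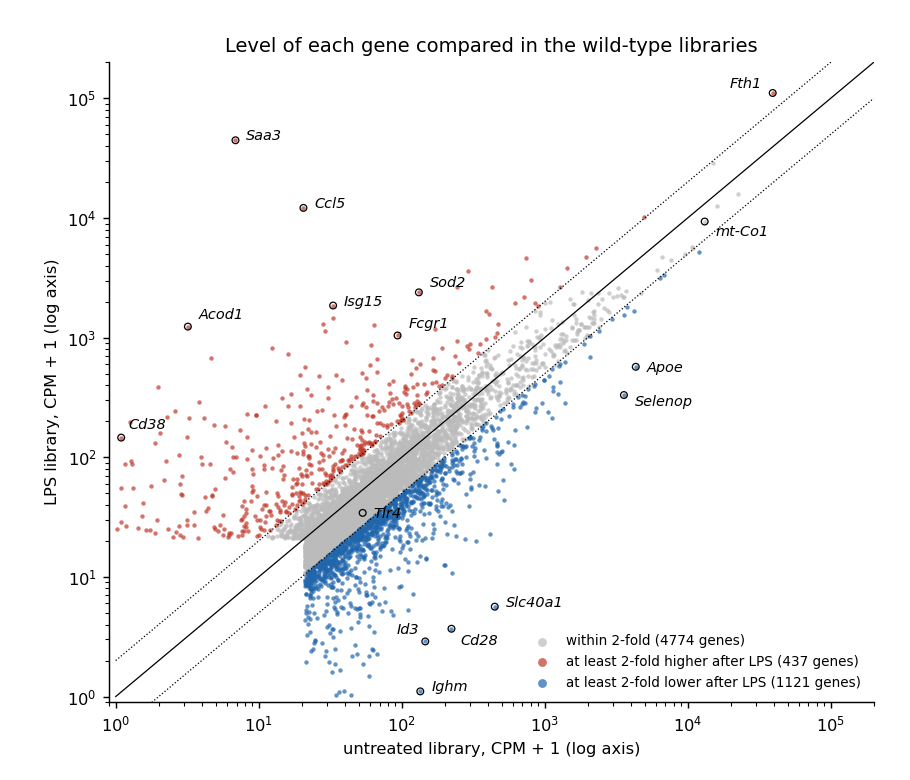
Level of each of the 6332 compared genes in the untreated (horizontal axis) and the LPS library (vertical axis) of wild-type macrophages, as CPM plus 1 on log axes. Each point is 1 gene, red and blue points lie beyond the dotted 2-fold lines, and Saa3, at 5.88 and 44663 CPM, is the farthest above them.

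The highest ratio belonged to Saa3, an acute-phase serum amyloid A gene (chromosome 7, 46711998 to 46715700 on GRCm38), at 5.88 and 44663 CPM, or 7599.9-fold (95% interval 6725 to 8622) higher. Its 257 untreated UMIs lay in 78 cells, and the richest 10 of them held 58.8%, which the interval does not take into account. Without the shared barcodes its log2 ratio was 12.83 in place of 12.67. After LPS it was found in 99.8% of cells once each cell was thinned at random to 3000 UMIs, and in 0.660% of untreated cells. Ccl5, a chemokine for T cells and monocytes (chromosome 11, 83525778 to 83530518), stood at 19.6 and 12154 CPM, and 88.1% of its 855 untreated UMIs came from 10 cells. Acod1, the enzyme that makes itaconate (chromosome 14, 103046977 to 103056573), stood at 2.20 and 1236 CPM, 563-fold (95% interval 461 to 695) higher. Cd38, an enzyme that breaks down NAD, had 4 UMIs in the whole untreated library and 20894 after LPS. For the formyl peptide receptor Fpr1 these were 11 and 28018 UMIs, 773-fold (95% interval 432 to 1549) higher per UMI total.

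Below these, the rest of the 25 genes with the highest ratios came from several families. The matrix protease Mmp14 stood at 2.81 and 287 CPM and Timp1, an inhibitor of such proteases, at 0.869 and 131 CPM. Complement factor B (Cfb) had 7 UMIs untreated and 12508 after LPS, or 0.160 and 86.8 CPM. Haptoglobin (Hp), which binds free haemoglobin, stood at 1.23 and 91.5 CPM. Ms4a4c, a membrane protein listed here among monocyte markers, stood at 11.4 and 825 CPM and made up nearly all of the summed monocyte markers of 874 CPM after LPS (99.2 CPM untreated). Ccr2 and F13a1, the other monocyte markers above 20 CPM, went the other way, at 34.1 and 6.76 CPM and 33.1 and 0.868 CPM. The interferon-inducible genes Ifi205, Ifi206, Slfn1 and Oasl1 were among the 25 too, at log2 ratios of 6.55, 5.55, 6.08 and 5.68.

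At the other end, the lowest ratio was that of Ighm, the constant region of the immunoglobulin M heavy chain (chromosome 12, 113418558 to 113422730), at 134 and 0.104 CPM. Its 5859 untreated UMIs were spread over 2796 cells with at most 13 in a cell, and 15 UMIs were left in the LPS library. Slc40a1, the iron exporter ferroportin (chromosome 1, 45908068 to 45926523), stood at 447 and 4.64 CPM, 96.4-fold (95% interval 89.2 to 104) lower, and was found in 61% and 1.51% of thinned untreated and LPS cells. Cd28, known as a costimulatory receptor of T cells, stood at 222 and 2.69 CPM, and Id3, an inhibitor of basic helix-loop-helix factors, at 145 and 1.89 CPM. The prostaglandin-degrading enzyme Hpgd had 1889 UMIs untreated and 3 after LPS, 2075-fold (95% interval 709 to 10069) lower per UMI total. The remaining 20 of the 25 lowest include the transport and membrane genes Gprc5c (35.6 and 0.0833 CPM), Slco2b1 (33.6 and 0.0278 CPM), Atp6v0d2 (61.3 and 1.51 CPM), Gpr34 (58.4 and 0.493 CPM), Ramp1 (52.8 and 0.888 CPM), Cd83 (61.7 and 1.47 CPM) and Cd300a (414 and 22 CPM). Cenpa, the histone variant of centromeres, stood at 223 and 9.81 CPM.

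Few genes of the sensing machinery differed by 2-fold. Of 25 genes for TLR4, its partners, adaptors and first kinases, 17 were compared, 2 stood at least 2-fold higher and none at least 2-fold lower. The list's median log2 ratio was -0.15, and 0.38 with median-of-ratios factors, which is a change of sign. Tlr4 stood at 52.3 and 33.3 CPM, log2 ratio -0.64, Ly96 (MD-2) at 66.1 and 60.5 CPM, log2 ratio -0.12 and Cd14 at 346 and 489 CPM, log2 ratio 0.50. The pair at 2-fold were the adaptor Myd88 at 43 and 101 CPM and the kinase Ikbke at 91.8 and 200.4 CPM, which phosphorylates interferon regulatory factors. TRIF (Ticam1), Ticam2, Tirap and Traf6 were under the 20 CPM minimum in both libraries.

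Among feedback inhibitors of TLR and NF-kB signalling more genes passed 2-fold. Of 27 compared, 13 were at least 2-fold higher and 5 at least 2-fold lower. The median was 0.80, and 1.33, past 2-fold, with median-of-ratios factors. Nfkbia, the NF-kB inhibitor IkBa, stood at 127 and 405 CPM, and the deubiquitinating enzyme Tnfaip3 (A20) at 17.3 and 49.2 CPM. Irak3, an IRAK family member that blocks MyD88 signalling, stood at 33.6 and 183 CPM. Of the suppressors of cytokine signalling, Socs1 stood at 1.92 and 47.4 CPM and Socs3 at 21.7 and 202 CPM, and Usp18, which removes ISG15 and damps the interferon receptor, at 8.55 and 226 CPM. The members that were lower include Zfp36 and its relatives, whose products bind AU-rich mRNA tails and speed their decay. Zfp36 stood at 470.3 and 173 CPM, log2 ratio -1.44. Zfp36l1 stood at 615 and 169 CPM, log2 ratio -1.86, and Zfp36l2 at 503 and 112 CPM, log2 ratio -2.16. The MAP kinase phosphatase Dusp1 stood at 326 and 119 CPM and the lipid phosphatase Inpp5d (SHIP1) at 242 and 109 CPM.

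Immediate early genes, which switch on within minutes of a stimulus or of cell handling, were lower at 24 h: none of 16 compared was 2-fold higher and 11 were 2-fold lower (median -1.62). Fos stood at 467 and 86.1 CPM, Fosb at 186 and 31.6 CPM and Egr1 at 47.6 and 1.25 CPM. Jun stood at 183 and 85.8 CPM, log2 ratio -1.09, and Junb differed less, at 327 and 302 CPM, log2 ratio -0.11. The Krüppel-like factors Klf2 and Klf4, which restrain inflammatory transcription, stood at 153 and 39.6 CPM and 64 and 14.1 CPM.

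**Figure D2:**
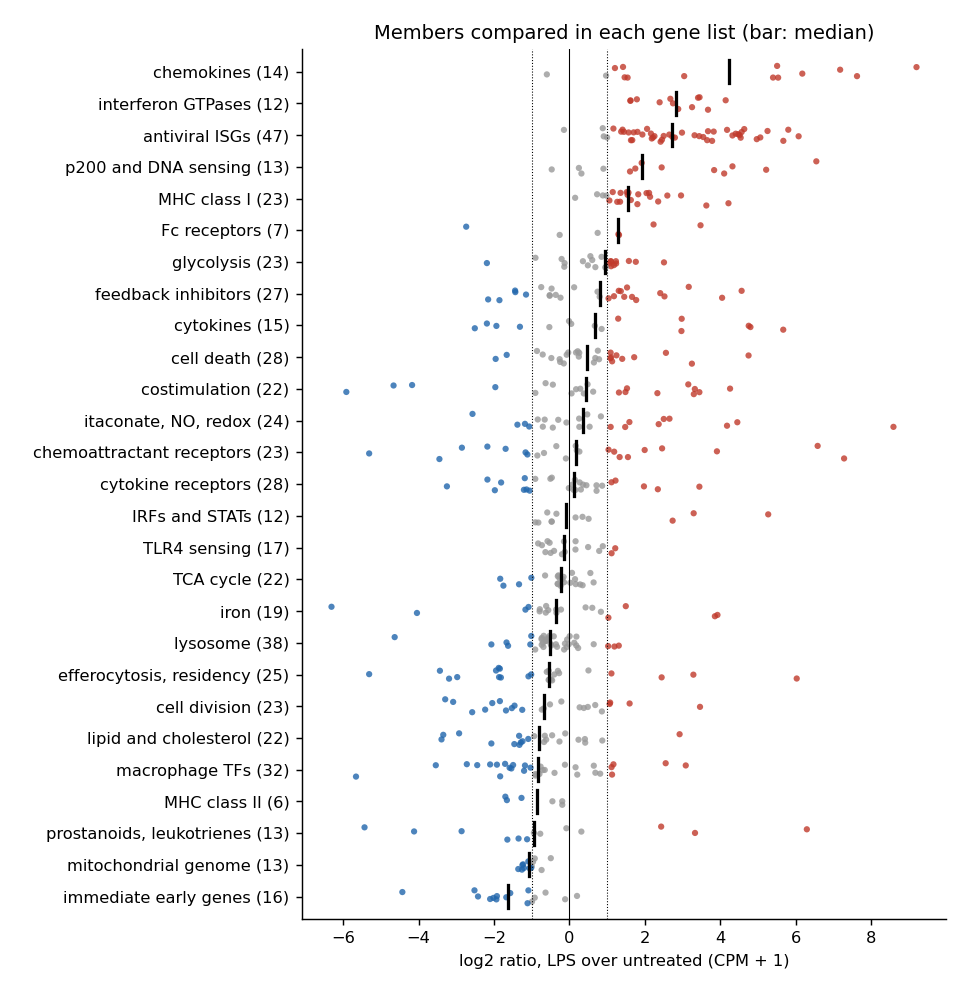
Log2 ratio of LPS over untreated CPM plus 1 for each compared member of 27 gene lists, with the number compared in brackets. Each point is 1 gene, black bars are medians, dotted lines mark 2-fold, and chemokines and the 3 groups of interferon-stimulated genes lie farthest to the right.

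Of 40 cytokine genes, 35 were in the table and 15 reached the level to be compared, with 6 at least 2-fold higher and 4 lower. Their median was 0.67, and 1.21, past 2-fold, with median-of-ratios factors. The highest ratios were those of 3 interleukin-1 family genes: Il1b stood at 20.2 and 572 CPM, Il1a at 0.0915 and 54.7 CPM and the receptor antagonist Il1rn at 7.32 and 231 CPM. Il18 of the same family differed less, at 18.7 and 34.6 CPM, log2 ratio 0.85. Tnf stood at 8.12 and 70.9 CPM, and Il18bp, which neutralises IL-18, at 11.6 and 98 CPM. Several cytokines known from LPS-treated macrophages were scarce at this time. Il6 had 1 UMI untreated and 276 after LPS, and Il12b 6 and 22. Il10 stood at 3.73 and 2.28 CPM, and Ifnb1, interferon beta itself, had 1 and 637 UMIs. The 4 lower members were Igf1 at 693 and 278 CPM, Vegfa at 64.5 and 13.4 CPM, Pdgfb at 63.9 and 10.4 CPM and Gdf15 at 40.5 and 9.83 CPM, all of them growth or differentiation factors. Tgfb1, at 308 and 213 CPM, log2 ratio -0.53, and Gdf3, at 37.2 and 37 CPM, log2 ratio -0.01, were not 2-fold lower.

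Chemokines were the list with the highest median among the families, 4.22 over 14 compared genes, 12 of them at least 2-fold higher and none 2-fold lower. The monocyte-attracting cluster on chromosome 11 stood out: Ccl2 at 15 and 727 CPM, Ccl7 at 3.66 and 676 CPM, Ccl12 at 0.960 and 387 CPM and Ccl8 at 0.274 and 91.3 CPM. These genes are close relatives, and counting could split or merge their UMIs. Cxcl10, which attracts T cells and is a classic interferon target, stood at 27.2 and 1310.2 CPM, 48.1-fold (95% interval 45.4 to 51) higher. The neutrophil attractants Cxcl2 and Cxcl3 stood at 65.8 and 194 CPM and 0.320 and 54.8 CPM, and Cxcl1 was under 20 CPM in both, at 0.983 and 4.57 CPM. The chemokines already abundant in untreated cells differed less: Ccl9 at 849 and 1666 CPM, log2 ratio 0.97, Ccl6 at 333 and 219.7 CPM, log2 ratio -0.60 and Pf4 at 1436 and 3849 CPM, log2 ratio 1.42.

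Receptors split. Of 23 compared receptors for chemokines, formyl peptides, complement, lipids and nucleotides, 9 were at least 2-fold higher and 7 lower. Fpr2 stood at 1.28 and 218 CPM beside the Fpr1 value above, Gpr84, a receptor for medium-chain fatty acids, at 5.63 and 98.8 CPM, and Ccr1 at 13.3 and 77.5 CPM. On the other side, Cxcr4, which holds cells in the marrow, stood at 239 and 21 CPM and Ccr2 at the values given among the monocyte markers. Of 28 cytokine receptors compared, 5 were higher and 8 lower. Il15ra stood at 4.34 and 26.2 CPM and Il2rg, the shared gamma chain, at 26.4 and 107 CPM, against Il7r at 127 and 12.4 CPM and Il6ra at 189 and 40.9 CPM. Csf1r, the receptor for the M-CSF in which the cells grew, stood at 1386 and 629 CPM, log2 ratio -1.14.

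ISGs made up the largest group. Of 47 antiviral ISGs compared, 43 were at least 2-fold higher and none lower (median 2.73). Of 12 interferon-inducible GTPases, which attack the vacuoles of intracellular microbes, all 12 were higher (median 2.82). Isg15, a ubiquitin-like modifier (chromosome 4, 156199424 to 156200818), stood at 32.2 and 1854 CPM, 57.7-fold (95% interval 54.7 to 60.8) higher. Ifit1, which binds foreign RNA caps, stood at 39.9 and 910.1 CPM, Rsad2 (viperin) at 60.0 and 866 CPM and the nucleic acid sensor Zbp1 at 15.9 and 337 CPM. Bst2 (tetherin) and Ifitm3, which block the release and entry of viruses, stood at 241 and 2631 CPM and 745 and 4676 CPM. The GTPases ran from Gbp9 (log2 ratio 1.618) to Iigp1 at 7.32 and 146 CPM, log2 ratio 4.14. Between them lay Gbp7 at 52.1 and 162 CPM, log2 ratio 1.62, and Gbp2 at 29.5 and 389 CPM.

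The 5 promoter windows below are shown because each holds a motif known from interferon-stimulated genes, and they were chosen for it. They are RefSeq sequences on GRCm38.p6, printed 5′ to 3′ on the strand of the gene, with the matches in capitals: an interferon-stimulated response element, GAAANNGAAA on either strand, in all 5, the NF-kB consensus in Cxcl10 as well, and the C/EBP motif TTNNGCAA in Saa3 as well. The windows are chr4:156200845-156200926 on the minus strand for Isg15, chr19:34640755-34640843 on the plus strand for Ifit1, chr3:142620574-142620643 on the plus strand for Gbp2, chr5:92348953-92349132 on the minus strand for Cxcl10 and chr7:46715738-46715831 on the minus strand for Saa3.
Isg15: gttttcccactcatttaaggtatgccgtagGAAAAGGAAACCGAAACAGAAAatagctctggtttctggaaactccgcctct
Ifit1: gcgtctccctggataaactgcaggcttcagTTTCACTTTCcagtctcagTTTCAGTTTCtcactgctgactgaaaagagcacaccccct
Gbp2: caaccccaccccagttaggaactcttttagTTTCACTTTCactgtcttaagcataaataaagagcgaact
Cxcl10: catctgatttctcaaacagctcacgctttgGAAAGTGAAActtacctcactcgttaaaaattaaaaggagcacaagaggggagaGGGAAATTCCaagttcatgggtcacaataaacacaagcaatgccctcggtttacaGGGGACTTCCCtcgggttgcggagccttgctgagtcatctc
Saa3: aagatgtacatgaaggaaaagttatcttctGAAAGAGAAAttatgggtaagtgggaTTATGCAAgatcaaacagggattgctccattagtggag

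Isg15 had 3 overlapping matches of the element in a row, ending 57 bases before the start, and Ifit1 had 2, read on the opposite strand. Over the RefSeq windows from 250 bases before to 50 after each start, the element was in 3.44% of all 32851 promoters and in 3.71% of the 6542 promoters of compared genes. It was in 15.5% of the 446 promoters of genes at least 2-fold higher, against 2.57% for genes at least 2-fold lower and 2.92% for those between. In the GTPase list 11 of 13 promoters held it, and in the antiviral list 21 of 52. The NF-kB consensus, in 10.7% of the promoters of compared genes, was in 16.8% of those of the higher genes and in 10 of 21 of the MHC class I list. The AP-1 motif (TGANTCA) was in 5.15% of the promoters of compared genes and in 49 of the 446 of the higher genes. For C/EBP these shares were 8.74% and 13.5%. A match is a description of the letters, not a binding site, and the elements can overlap. Ccl5, Ccl7, Ccl2, Cfb and Hp were not in the promoter table.

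The factors upstream of the ISGs differed in size. Of 12 interferon regulatory factors and STATs compared, 3 were at least 2-fold higher and none lower, and the median of -0.09 turned to 0.45 with median-of-ratios factors. The higher ones include Irf7 at 28.3 and 1131 CPM and Stat2 at 32.6 and 223 CPM. Irf1 stood at 46.2 and 66.2 CPM, log2 ratio 0.51, Irf9 at 55.2 and 70.4 CPM, log2 ratio 0.35, and Irf3, which is activated by phosphorylation, at 29.2 and 19.1 CPM, log2 ratio -0.59. Of 13 p200-family and DNA-sensing genes, 9 were higher and none lower, among them Ifi204 at 118 and 647 CPM and Ifi213 at 1.78 and 103 CPM. Sting (Tmem173) stood at 32.6 and 23.3 CPM, log2 ratio -0.47.

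Antigen presentation diverged by class. MHC class I genes, with the peptide transporter and the immunoproteasome, had 19 of 23 members at least 2-fold higher and all 23 above 0 (median 1.57). H2-K1 stood at 1275 and 2659.7 CPM, log2 ratio 1.06, and its sister H2-D1 at 2106 and 2339.7 CPM, log2 ratio 0.15. B2m, the light chain, stood at 1955 and 4710.2 CPM, the transporter Tap1 at 43.2 and 266 CPM and the immunoproteasome subunit Psmb8 at 125 and 554 CPM. The H2-Q and H2-T genes are near-identical copies, and their separate values (H2-Q7 at 5.49 and 119.8 CPM, for example) are uncertain. Over all cells class II went the other way: 3 of 6 compared genes were at least 2-fold lower and none higher. The median was -0.86, and -0.33 with median-of-ratios factors. The medians within clusters, given below, were not all below 0 but can cover different genes. Cd74, the invariant chain, stood at 234 and 96.5 CPM and H2-Aa at 56.7 and 17.3 CPM. Of 22 costimulatory and checkpoint genes compared, 9 were higher and 4 lower: Cd40 stood at 3.98 and 53.3 CPM and the PD-1 ligand Cd274 at 26.8 and 246 CPM, while the inhibitory Vsir stood at 386 and 98.1 CPM. Cd80 and Cd86 were under 20 CPM in both libraries.

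Enzymes of lipid mediators differed in both directions. Ptges, the inducible synthase of prostaglandin E2, stood at 1.03 and 159 CPM and the PAF-degrading Pla2g7 at 9.19 and 102 CPM. By contrast Ptgs1 (COX-1) stood at 46.1 and 1.71 CPM, the prostaglandin D synthase Hpgds at 238 and 75.4 CPM and the leukotriene C4 synthase Ltc4s at 34.3 and 3.86 CPM. Ptgs2 (COX-2), the inducible cyclooxygenase, was at 0.366 and 7.41 CPM, under the minimum. In all, 3 of 13 genes of this list were higher and 6 lower (median -0.94, and -0.41 with median-of-ratios factors).

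Arginine, itaconate and redox genes followed no single direction. Nos2, which makes nitric oxide, had 2 untreated UMIs and 1357 in LPS cells, still only 9.42 CPM. Ass1, which recycles citrulline to arginine, stood at 3.00 and 86.6 CPM, Slc7a2, an arginine transporter, at 2.74 and 20.2 CPM, and Gch1, which makes the cofactor of nitric oxide synthase, at 19.6 and 105 CPM. The mitochondrial superoxide dismutase Sod2 stood at 131 and 2391 CPM, log2 ratio 4.18, while the cytosolic Sod1 stood at 258 and 98.5 CPM, log2 ratio -1.38. Catalase (Cat) stood at 347 and 57.6 CPM and Prdx5, a peroxiredoxin, at 424 and 2675 CPM. Both subunits of the glutathione-making ligase were lower, Gclc at 35.4 and 15.1 CPM, log2 ratio -1.18 and Gclm at 131 and 62 CPM, log2 ratio -1.07. Of 24 genes compared, 9 were higher and 4 lower.

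Iron genes also differed in both directions. Besides the ferroportin value above, Trf (transferrin) stood at 331 and 19.1 CPM. Fth1, the ferritin heavy chain, stood at 39375 and 110994 CPM, 11.1% of all LPS UMIs, and the light chain Ftl1 at 16079 and 12590.0 CPM, log2 ratio -0.35. Ceruloplasmin (Cp), a ferroxidase, stood at 5.90 and 99.1 CPM. Lcn2, which binds bacterial siderophores and is also a neutrophil granule gene, stood at 12.3 and 201 CPM, log2 ratio 3.93. However, 514 of its 536 untreated UMIs lay in 6 cells with 20 or more UMIs of the neutrophil gene S100a9. Without such cells (6 untreated, 5 after LPS) it stood at 0.504 and 198 CPM, log2 ratio 7.05. The iron list had 4 of 19 members higher and 4 lower, and its median of -0.35 turned to 0.19 with median-of-ratios factors. Metallothioneins Mt1 and Mt2, which bind zinc, stood at 482 and 106 CPM and 73.9 and 17.4 CPM.

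Of 25 genes of uptake and of the resident macrophage state, 11 were at least 2-fold lower and 4 higher. Their median was -0.55, near that of all genes, and -0.03 with median-of-ratios factors. The mannose receptor Mrc1 stood at 511 and 64 CPM, Gas6, a bridge to dying cells, at 473 and 50.8 CPM, its receptor Mertk at 113 and 52.5 CPM and the lipid receptor Trem2 at 1234 and 336 CPM. Selenop, a selenium carrier, stood at 3585 and 330.3 CPM. The 4 that were higher were the scavenger receptors Marco (2.24 and 211 CPM) and Msr1 (59.1 and 586 CPM), Siglec1 (6.93 and 42.2 CPM) and Folr2 (37.4 and 82.1 CPM). Among Fc receptors Fcgr1, the high-affinity receptor for IgG, stood at 92.6 and 1042 CPM and Fcgr4 at 55.4 and 264 CPM, while Fcgr3 stood at 694 and 579.7 CPM, log2 ratio -0.26 and the recycling receptor Fcgrt at 382 and 56.4 CPM. The C-type lectin Clec4e (Mincle), a sensor of mycobacterial glycolipid, stood at 62.8 and 1279 CPM, and Clec10a at 32.9 and 1.51 CPM. In the complement list 2 of 11 were higher, C3 (16.6 and 147 CPM) and Cfb, while C1qa stood at 602 and 854 CPM, log2 ratio 0.50.

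Lipid handling was lower on balance, 10 of 22 genes against 1 higher (median -0.80, and -0.27 with median-of-ratios factors). Apoe stood at 4338 and 569.6 CPM, the lysosomal lipase Lipa at 753 and 178 CPM, Pparg at 31.8 and 2.12 CPM and the oxysterol enzyme Cyp27a1 at 59.1 and 4.91 CPM. The exception was Nr1h3 (LXR alpha) at 12.7 and 103 CPM. The cholesterol exporters Abca1 and Abcg1, known targets of LXR, stood at 472 and 299.8 CPM, log2 ratio -0.65, and 145 and 120.4 CPM, log2 ratio -0.26. In sterol synthesis 1 of 16 genes was at least 2-fold higher, the desaturase Scd2 (18.8 and 72 CPM), and none lower. The median was 0.18, above the -0.39 of all compared genes, and 0.71 with median-of-ratios factors.

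Central carbon metabolism was read from 2 lists and from the mitochondrial genome. Of 23 glycolytic and hypoxia-linked genes 10 were at least 2-fold higher and 1, Vegfa, lower (median 0.95, and 1.49 with median-of-ratios factors). Pfkfb3, which makes the activator of phosphofructokinase, stood at 13.8 and 83 CPM, the glucose transporter Slc2a1 at 6.86 and 25.6 CPM, the lactate exporter Slc16a3 at 19.1 and 59 CPM and Ldha at 208 and 490.3 CPM. In the TCA cycle none of 22 was 2-fold higher and 4 were lower, and the median of -0.21 turned to 0.32 with median-of-ratios factors. Idh1 stood at 229.6 and 63.6 CPM, while Sdhb and Mdh2 stood above 0, at 147 and 217 CPM, log2 ratio 0.56, and 108 and 169 CPM, log2 ratio 0.64. The 13 protein genes of the mitochondrial genome were all lower, 8 of them at least 2-fold (median -1.06, and -0.52 with median-of-ratios factors), from mt-Co1 at 13164 and 9346 CPM, log2 ratio -0.49 to mt-Nd3 at 564 and 219 CPM, log2 ratio -1.36. The share of mitochondrial UMIs given above is the same measurement.

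The transcription factors listed for macrophages were lower more often than higher, 14 against 5 of 32. Their median was -0.85, and -0.31 with median-of-ratios factors. Spi1 (PU.1), the lineage factor, stood at 329 and 380.0 CPM, log2 ratio 0.21. Cebpa stood at 97.1 and 7.41 CPM, whereas Cebpb stood at 342 and 744 CPM. Maf stood at 994 and 439 CPM and Mef2c at 305 and 55.1 CPM, and Batf and Batf2 were higher, at 3.43 and 36.6 CPM and 4.60 and 31.8 CPM. In the lysosome list 3 of 38 were higher, Ctsc (353 and 877 CPM), Ctsz (858 and 1964 CPM) and the protease inhibitor Cstb (895 and 1826 CPM), and 6 lower, among them Psap (6438 and 3134 CPM) and Tfeb, a master factor of lysosome genes (51.7 and 16.1 CPM). Its median of -0.52 turned to 0.03 with median-of-ratios factors.

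Survival and death genes had 10 of 28 higher and 2 lower. The anti-apoptotic Cflar stood at 110.5 and 264 CPM, the necroptosis effector Mlkl at 8.07 and 52.5 CPM, Casp4 (the sensor of cytosolic LPS) at 41.7 and 92.6 CPM and its substrate Gsdmd at 44.5 and 95.7 CPM. The 2 lower were the pro-apoptotic Bcl2l11 (Bim) at 157 and 39.6 CPM and Bbc3 (Puma) at 36.3 and 10.8 CPM. Of 23 cell division genes 10 were lower and 4 higher. The lower ones include Cenpf (58.1 and 5.02 CPM) and Ube2c (96.3 and 15.3 CPM), which act in mitosis, the proliferation marker Mki67 (75.1 and 20.2 CPM), and Cdkn1b (69.4 and 16 CPM) and Cdkn2c (33.7 and 11 CPM), inhibitors of the kinases that lead into S phase. The higher ones were Mcm3 (12.9 and 28.3 CPM) and Mcm5 (6.20 and 20.8 CPM) of the replicative helicase and the cyclins Ccnd1 (15.2 and 32.9 CPM) and Ccnd2 (3.20 and 45.4 CPM). The list's median was -0.68 over all cells and 0.31 without the clusters of proliferating and High_Btg1 cells, and -0.74 within the Proliferating cluster. Each median was taken over the members that passed the minimum level in those cells. These medians can therefore cover different genes, and the change of sign need not be that of the same genes. Leaving those 2 clusters out moved 9 named or listed genes by over 1.5 times, among them the log2 ratio of Cenpa from -4.37 to -5.58, the log2 ratio of Ube2c from -2.58 to -4.09, the log2 ratio of Cenpf from -3.30 to -2.57 and the log2 ratio of Mki67 from -1.84 to -0.71, under 2-fold. In sums over a library, fewer cells of a kind and less RNA per cell cannot be told apart.

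To describe the response cell by cell, each cell was thinned to 3000 UMIs. This left 6362 untreated and 8166 LPS cells (666 and 122 shallower cells were left out). The UMIs of 40 LPS-response genes were then summed per cell. These genes were chosen with earlier results of these data known, and all 32 compared of them stood at least 2-fold higher. The score therefore describes how that difference was spread over cells and is no independent test of a response. The median untreated cell had 1 UMI of these genes and the median LPS cell 200. The median number of the 40 genes found per cell was 1 and 16. The 99th percentile of untreated cells was 22 UMIs. Of 8166 LPS cells, 8164 lay above it (99.98%, exact binomial interval 99.91 to 99.997%), as did 63 of 6362 untreated cells (0.990%). Only 4 LPS cells and 29 untreated cells lay within 20% of that value. Above the highest untreated cell, at 120 UMIs, lay 6903 LPS cells (84.5%). The score leaned on few genes: without Saa3, Ccl5 and Sod2 the share above the 99th percentile was 81.9%. That percentile, again 22 UMIs, was taken over all untreated cells together. Without the 3 genes, 28.7% of untreated cells in the cluster that the authors named Ifit1bl1+_Cmpk2+ lay above it, against 0.912% of all untreated cells. The median was then 34 UMIs in LPS cells and 1 in untreated cells, so a cell under this cut need not lack the other genes. Free RNA in the droplets can add UMIs of such abundant genes to any cell. No cell type that should lack them was at hand in the LPS library, so its part in these shares was not tested.

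**Figure D3:**
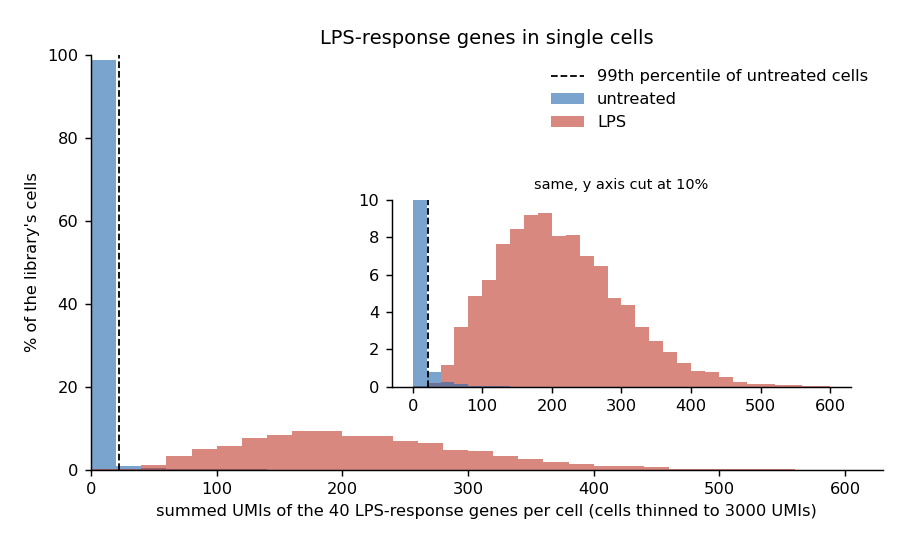
Distribution of the summed UMIs of the 40 LPS-response genes per cell, for untreated (blue) and LPS (red) cells thinned to 3000 UMIs, as a percentage of each library's cells. The dashed line is the 99th percentile of untreated cells at 22 UMIs, 8164 of 8166 LPS cells lie to its right, and the inset repeats the plot with the vertical axis ending at 10%.

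Some of the transcripts that were higher after LPS were spread unevenly over cells, while the typical shortfall was small. Over 241 genes at least 2-fold higher and at 100 CPM or more after LPS, the share of thinned LPS cells with a UMI was set beside the share that a Poisson count of the same mean would give. The median shortfall was 1.94 percentage points. In all, 50 genes fell short by more than 5 points and 26 by more than 10. Ccl4 was found in 34.3% of cells against 74.4% under Poisson, and the 816 cells richest in it held 73% of its UMIs. For Il1b these values were 42.7%, 81.1% and 59.9%. For Cxcl10 they were 64.1%, 97.9% and 49.5%. Marco was the most uneven by this last measure among the 10 largest shortfalls, with 13.1% of cells and 94.9% of UMIs in its 816 richest cells. Ccl7, Ccl12, Ccl2, Rsad2, Lcn2 and Cmpk2 completed the 10. The 10 smallest shortfalls were those of B2m, Actb, Fth1, Ifitm3, Fcer1g, Ccdc86, Tnip1, H2-K1, Psmd10 and Aida. For the first 5 and H2-K1 the Poisson share is itself near 100%, so the shortfall cannot show how even they were: the 816 richest cells held 18.7% of Actb UMIs against 13.3% under Poisson. B2m had a median of 15 UMIs per thinned cell and Ifitm3 of 13. Saa3 was found in 99.8% of thinned cells, but its 816 richest cells held 22.9% of its UMIs against 11.6% under Poisson. In cells as deposited, with the depth gap between the libraries, Ccl4 was found in 62.1% of LPS and 14.3% of untreated cells.

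**Figure D4:**
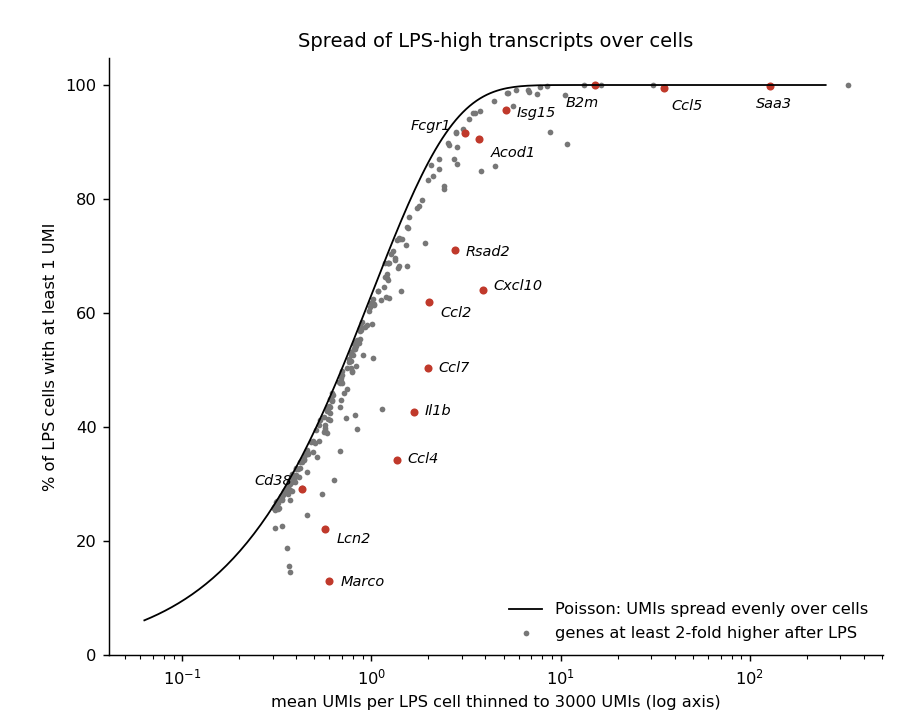
For 241 genes at least 2-fold higher and at 100 CPM or more after LPS, mean UMIs per thinned LPS cell (horizontal, log axis) against the percentage of LPS cells with at least 1 UMI. The line is the share under a Poisson count, and named genes in red such as Ccl4 (34.3%) and Marco (13.1%) lie far below it.

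The response was then taken within the clusters as the authors named them, for the 8 with at least 100 cells in both libraries. High_Btg1, with 5 untreated and 36 LPS cells, was left out. Cluster sizes are not compared, since genes that differ with LPS are among those that define the clusters. The cluster called Macrophage had 432 genes at least 2-fold higher (6.81% of those compared in it) and 1203 lower (19.0%). Il1b+_Cxcl2+ had 418 (6.60%) and 1188 (18.7%), and High_Apoe 454 (7.26%) and 1095 (17.5%). High_Lpl_Fabp4+ had 411 (6.62%) and 921 (14.8%), and Cd74+ 476 (7.75%) and 1046 (17.0%). In Tmem176+ the counts were 474 (7.77%) and 1232 (20.2%), in Proliferating 483 (7.22%) and 1252 (18.7%), and in Ifit1bl1+_Cmpk2+ 356 (6.32%) and 986 (17.5%). Of 5296 genes compared in all 8, 174 were at least 2-fold higher in each and 434 at least 2-fold lower in each. Of the 387 of these that were 2-fold higher over all cells, 372 lay above 0 in every cluster, and of the 874 lower, 872 lay below 0 in every cluster.

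The gap between the highest and lowest cluster was wider for genes that were higher over all cells, with a median of 1.31 on the log2 scale, than for those lower, with 0.66 (0.57 over all genes compared in every cluster). Cluster Ifit1bl1+_Cmpk2+, named for a pair of ISGs, had the lowest ratio of Cxcl10, Ifit1, Ifit2, Iigp1, Ifi44, Ifit3 and Mx1, which were among the widest gaps. Its untreated cells already carried ISGs, so that the antiviral list had a median of 0.66 in it against 2.65 to 3.01 in the other 7 clusters. The clustering and its name rest on those genes, so this is a description of it. In that cluster Ifit1 stood at 1087 CPM untreated and 1967 after LPS, and in Macrophage at 11.1 and 815 CPM. Of its 167 thinned untreated cells, 48 lay above the 22 UMIs given above, which is most of the 63 untreated cells that did. Saa3, which is no defining gene by name, stood at 4.83 and 32240.0 CPM there and at 4.02 and 49785 CPM in Macrophage. Without Saa3, Ccl5 and Sod2, the share of LPS cells above the 99th percentile of untreated cells ran from 72.7% in High_Apoe and 74.4% in Macrophage to 100% in Ifit1bl1+_Cmpk2+. Untreated cells of Ifit1bl1+_Cmpk2+ already had a median of 12 UMIs of the remaining list genes, against 0 in High_Apoe and in Macrophage. These shares are therefore not a ranking of clusters by response.

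The widest 2 gaps were those of the chemokines Cxcl10, itself an interferon target, and Ccl5. Cxcl10 had a log2 ratio of 2.44 in Ifit1bl1+_Cmpk2+ and of 10.48 in Cd74+, and Ccl5 of 5.42 in Cd74+ and 12.35 in High_Lpl_Fabp4+. For Ccl5 the untreated level set this, since a few Cd74+ cells held most of its untreated UMIs (322 CPM in that cluster), while the LPS level was 13838 CPM there and 11667 CPM in High_Lpl_Fabp4+. Tnf ran from 1.93 in Il1b+_Cxcl2+ to 3.93 in Tmem176+. Of the other genes that are not ISGs, Lcn2 ran from 1.76 in Proliferating to 8.09 in Tmem176+, with nearly all its untreated UMIs in the few S100a9-rich cells, and the gap of Marco was 4.28, with its lowest ratio in Tmem176+. Sod2 had a narrower gap, from 3.83 to 4.31. The median of MHC class II was -1.35 in Cd74+ and -0.22 in Macrophage, but above 0 in High_Lpl_Fabp4+ (0.05) and Proliferating (0.32). Each cluster median covers only the members that passed the minimum level in that cluster. These medians can therefore rest on few and different genes, and their signs are not a comparison of the same genes. Only 6 genes were at least 2-fold higher in one cluster and at least 2-fold lower in another, counting clusters where they were compared. They were Tubb4b, Tpx2, Dna2 and Atad2 of cell division, and the neutrophil genes S100a8 and S100a9. Of the S100a9 UMIs, 99.3% untreated and 98.7% after LPS lay in the 6 and 5 cells rich in it. These 6 were named after their values were seen.

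**Figure D5:**
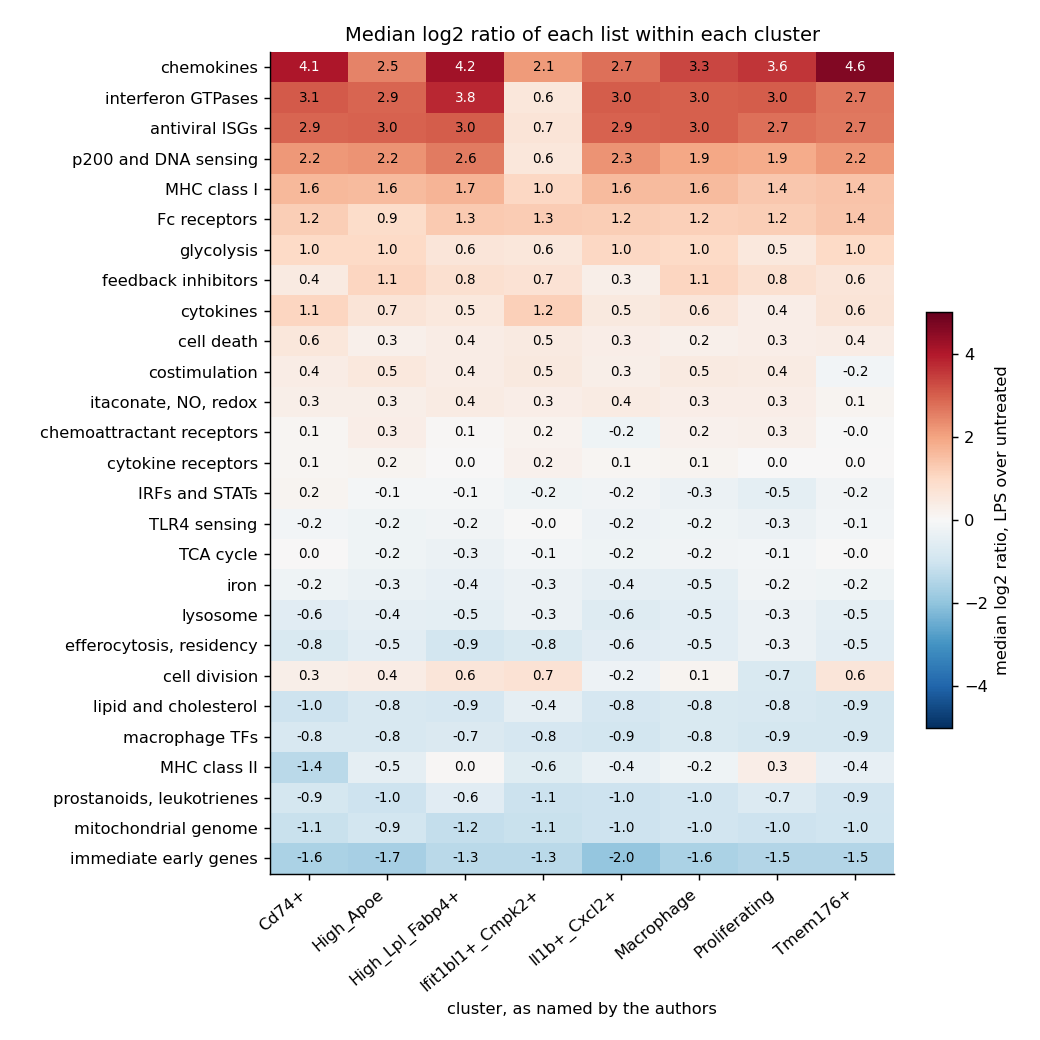
Median log2 ratio of LPS over untreated (colour and printed value) for the compared members of 27 gene lists (rows) within each of 8 clusters (columns). The column Ifit1bl1+_Cmpk2+ is pale for antiviral ISGs, at 0.66, and the row of immediate early genes is below 0 in all 8 clusters.

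The libraries labelled Trpv4-null, which share no library with the wild-type comparison, gave 463 genes at least 2-fold higher after LPS (7.30%) and 1348 lower (21.3%). Of the wild-type genes, 401 of the 437 higher were so there too (91.8% of the wild-type list and 86.6% of the other), and 1042 of the 1121 lower (93.0% and 77.3%). No gene was 2-fold higher in one and 2-fold lower in the other.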

How the data were processed

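Single-cell RNA sequencing on the 10x Genomics platform had been done on 4 libraries, of which the untreated and the LPS-treated wild-type library were compared. The deposited table holds whole-number UMI counts per gene and cell, not normalized, and the deposited annotation gives each cell's library, cluster name, UMI count and the fraction of its UMIs from mitochondrial genes, per the file headers. The submitters' processing notes name the build mm10, R 4.2, Seurat 4 and Cell Ranger 3.1.0. For the authors' filters, doublet removal, aligner settings and strand use, nothing was stated in these sources. The deposited cells had 1003 to 39987 UMIs and at most 9.998% mitochondrial UMIs, and no doublet caller was run. Relatives that share sequence and overlapping genes may share counts.

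UMIs were summed per library, or per library and cluster, and scaled to CPM. Ratios were log2 of CPM plus a pseudocount of 1, which understates ratios of low genes, for genes with at least 20 CPM and 30 UMIs in the higher library. CPM and ratios carry exact Poisson and exact conditional intervals, and shares exact (Clopper-Pearson) intervals, at 95%. PCR copies are removed by UMIs, but mice and cultures are not replicated, so no p-value was computed. Cells were thinned without replacement to 3000 UMIs for shares. The genes named were the 25 highest and 25 lowest, members of 36 gene lists, and the 10 largest and 10 smallest shortfalls against Poisson. The members and lists were chosen with earlier results of these data known. Some list members are not reported here. Positions came from GENCODE M21, where 14253 of 14432 symbols (98.76%) had 1 position. Alternatives covered scaling, pseudocount, minimum level, weighting of clusters and cells, and cells left out. TMM factors came from edgeR 4.0.16 in R 4.3.3, and all else from Python 3.11.15 with scipy 1.17.1, numpy 2.4.6, matplotlib 3.10.9 and pandas 2.3.3. The ratio and thinning steps were tested on simulated counts.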

Additional observations from a re-analysis of the deposited data

How the results depend on the processing

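Counts past 2-fold depended on the scaling and the minimum level. The count of genes at least 2-fold higher (437) was 843 with median-of-ratios size factors, 814 with TMM factors, 3412 as UMIs per cell with no depth scaling, 665 with no CPM minimum and 241 with at least 100 CPM. For genes at least 2-fold lower (1121) these were 420, 427, 145, 2016 and 349. The other settings (other pseudocounts, clusters or cells weighted equally, without the clusters of proliferating and High_Btg1 cells, and, added after seeing the data, without shared barcodes or without cells rich in S100a9) gave 404 to 444 and 908 to 1179. The count higher in every cluster (174) was 98 with at least 100 CPM, 410 with median-of-ratios factors and 260 in clusters of at least 200 cells. The share of LPS cells above the 99th percentile of untreated cells was 84.5% against the highest untreated cell and 81.9% without the list's 3 most abundant members.

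Of 368 named or listed genes at 2-fold or more, 315 were still so under median-of-ratios and under TMM scaling. Those scalings shift log2 ratios too little to turn their sign. With clusters weighted equally 353 of the 368 were still so, with cells weighted equally 365. Without the proliferating and High_Btg1 clusters 363 of the 368 were, and none changed sign in these settings. With clusters weighted equally 50 of them moved by over 1.5 times. Beside the lists named in the report, the medians for coagulation and fibrinolysis (-0.46 to 0.07) and matrix proteases (-0.39 to 0.14) changed sign with median-of-ratios factors, and likewise with TMM factors. The medians of the lists for NAD metabolism and cell division changed sign too, the former with clusters weighted equally (-0.043) and the latter without the proliferating and High_Btg1 clusters (0.31). In both settings the minimum level was applied anew, so the genes behind these medians can differ from the main ones. No paired analysis was possible because each group is 1 library, and for the same reason no replicate could be left out. Depth limits genes under 20 CPM, where the untreated library has fewer UMIs to count.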
